A study of Mus musculus with 6 samples.

Results

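CD4 T cells carrying excess Blimp-1 were compared with control CD4 T cells, using 4 of the 6 RNA sequencing libraries of the series: 2 labelled BTg, for Blimp-1 overexpression, and 2 labelled WT. The comparison was chosen by these labels and columns and covers every gene in the deposited table, 28914 in all. Both groups are unfractionated CD4 T cells, sorted from spleens of NOD mice aged 12 weeks, a strain prone to spontaneous autoimmune diabetes, and the cells were taken without stimulation of the T cell receptor in culture. The remaining 2 libraries, labelled CKO for a Blimp-1 knockout in the same strain and age, entered the estimate of the spread between libraries and the filter that decided which genes were tested, and no difference given here. The labels name neither the promoter that drives the transgene nor the cells in which it is active, and they do not say whether mice were pooled or whether each library is 1 mouse. P-values therefore measure the spread between these libraries, which may be technical.

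Blimp-1, encoded by Prdm1, is a DNA-binding repressor with zinc fingers and a PR domain that recruits corepressors to its targets. It drives B cells towards the plasma cell state, and in T cells it accompanies effector differentiation, restrains interleukin-2 and opposes Bcl6, the repressor on which T follicular helper (Tfh) cells depend. Naive CD4 T cells carry a different programme, with homing receptors for lymph nodes, the interleukin-7 receptor and the transcription factors Tcf7 and Lef1.

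The libraries held 14958458 to 17782999 reads counted on genes. The defining CD4 T cell genes were present in all 4. Cd4 stood at 93.7 and 81.7 FPKM in WT and 99.4 and 103 in BTg, where FPKM is the number of reads scaled to gene length and library size, and Cd3e, a chain of the T cell receptor complex, at 60.1 and 78.0 against 80.2 and 100 FPKM. Across genes, WT replicate 1 was less like WT replicate 2 (Spearman correlation 0.919 over 10798 genes) than like BTg replicate 1 (0.960), while the BTg pair stood at 0.947. WT replicate 2 was likewise more like BTg replicate 2 (0.944) than like WT replicate 1. WT replicate 2 carried the most reads of cell cycle genes, 0.448% against 0.151% in WT replicate 1 and 0.162 and 0.197% in BTg, and of erythroid genes, 0.236% against 0.0376% and 0.0373 and 0.0539%. The lists and genes whose values rest most on WT replicate 2 are given below with and without it.

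Prdm1 (ENSMUSG00000038151, minus strand of chromosome 10 between 44437177 and 44528501 on GRCm38) checks the label. WT gave 171 and 201 reads of it and BTg 6275 and 9443, or 0.458 and 0.628 FPKM against 19.6 and 30.1 FPKM. Both BTg libraries stood far above both WT libraries, and on the log2(FPKM + 1) scale Prdm1 rose by 4.04 (SE 0.26, limma adjusted p = 0.0221). The table holds 1 value per gene, so transcript from the transgene and from the gene's own locus is not separated.

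The filter of 1 FPKM or more in 2 or more of the 6 libraries kept 10798 genes (10166 with the 4 WT and BTg libraries alone), of which 2 passed limma's test at an adjusted p under 0.05, or 0.0185%: Prdm1, which rose, and Igfbp4, which fell, 0.00926% in each direction. At an unadjusted p under 0.05 there were 175 genes, or 1.62%, of which 83 were higher (0.769%) and 92 lower (0.852%) in BTg. The comparison was therefore described by a second measure, whether both BTg libraries lay on one side of both WT libraries. By it 1589 genes (14.7%) stood higher and 1118 (10.4%) lower in BTg, and these percentages are the background for every count of non-overlapping genes below. With a difference of at least 2-fold on the log2(FPKM + 1) scale as well, 61 genes (0.565%) stood higher and 90 (0.833%) lower. Only 7 of the 61 and 22 of the 90 were protein coding. Small and ribosomal RNA genes made up 33 and 21 of them, and immunoglobulin segments 13 and 28. Several settings ended both calls, among them quantile normalization and the fits without the first CKO library and without either WT library, at limma adjusted p of 0.0618 to 0.546. With only the 4 WT and BTg libraries in the fit Igfbp4 was called (limma adjusted p = 0.0491) and Prdm1 was not (0.132), Prdm1 was not called with a filter of 5 FPKM (0.0808), and Igfbp4 was not called without either BTg library, at 0.309 and 0.573.

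**Figure D1:**
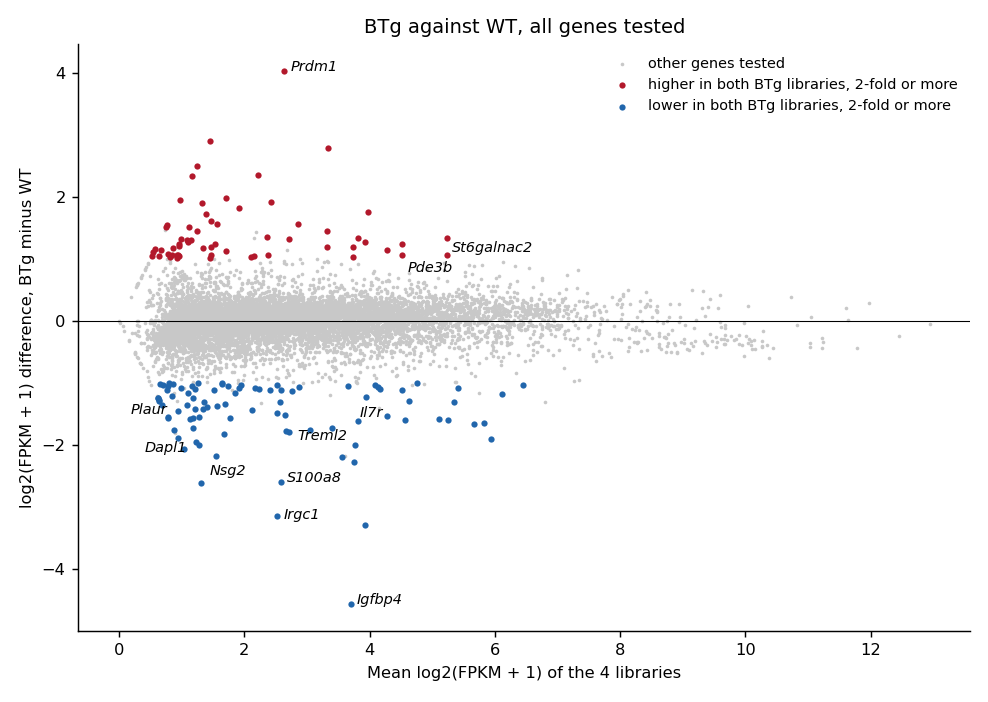
Each point is 1 of the 10798 tested genes, with its mean log2(FPKM + 1) over the 4 libraries on the x axis and its log2 difference, BTg minus WT, on the y axis. Genes whose libraries do not overlap and differ by 2-fold or more are coloured, 61 higher in red and 90 lower in blue, and Prdm1 at 4.04 and Igfbp4 at -4.57 are the 2 genes past the threshold.

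The gene with the widest difference on the lower side was Igfbp4 (ENSMUSG00000017493, chromosome 11, 99041244 to 99054392, plus strand), whose product binds insulin-like growth factors. It stood at 64.4 and 60.6 FPKM in WT and 1.87 and 1.48 in BTg, from 8806 and 7104 reads against 219 and 170. WT exceeded BTg by 37.4-fold in mean FPKM, and Igfbp4 fell by 4.57 on the log2(FPKM + 1) scale (SE 0.29, limma adjusted p = 0.0221). None of the other genes named below passed the threshold, and their differences are given as values.

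Nsg2, a vesicle protein gene of the naive list, stood at 5.99 and 4.57 FPKM against 0.372 and 0.366, a log2 difference of -2.19 (SE 0.27, limma adjusted p = 0.393). Treml2, an immunoglobulin-superfamily receptor on lymphoid and myeloid cells, had 12.1 and 10.6 FPKM in WT and 2.70 and 2.36 in BTg. Its libraries were tight within each group and its log2 difference was -1.80 (SE 0.21, limma adjusted p = 0.368).

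Dapl1, a gene of naive T cells, was close to absent from BTg. It had 5.45 and 1.72 FPKM in WT, from 1972 and 535 reads. In BTg it was listed at 0 in replicate 1 and had a single read, 0.00328 FPKM, in replicate 2. Il7r, the receptor chain for interleukin-7, a survival cytokine of resting T cells, stood at 26.1 and 19.3 FPKM against 8.39 and 9.71, a log2 difference of -1.23 (SE 0.38). Id3, an inhibitor of E-protein transcription factors, stood at 27.8 and 22.9 FPKM against 14.7 and 8.54 (log2 difference -1.10, SE 0.38). Pdlim1, a cytoskeletal adaptor with PDZ and LIM domains, had 2.19 and 2.26 FPKM in WT and 0.385 and 0.489 in BTg (log2 difference -1.17, SE 0.19).

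Irgc1, an immunity-related GTPase family member, had 14.6 and 18.1 FPKM in WT and 0.508 and 1.48 in BTg (log2 difference -3.16, SE 0.64). It lies on chromosome 7 at 24431922 to 24452297, and Plaur, the urokinase receptor, lies beside it at 24462484 to 24475968. Plaur had 2.13 and 2.24 FPKM against 0.122 and 0.192 (log2 difference -1.46, SE 0.26). The noncoding Gm36159, which overlaps Irgc1 on the opposite strand, had 2.86 and 4.58 FPKM against 0.110 and 0.292, and reads of the pair cannot be told apart because no strand setting is given. Of the genes around them, Kcnn4, a potassium channel, had a log2 difference of -0.52, and Smg9, Irgq and Xrcc1 had 0.02, -0.01 and 0.25. The neighbours were looked up after the values of Irgc1 and Plaur were seen.

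Scml4, a Polycomb-related gene on chromosome 10 at 42860370 to 42960780, had 2.95 and 3.52 FPKM in WT and 0.882 and 1.04 in BTg (log2 difference -1.11, SE 0.38). The antisense transcript Gm34006 inside it had 4.05 and 3.46 FPKM against 0.803 and 0.865, a log2 difference of -1.37. No exon positions shared with Scml4 are annotated. Its upstream neighbour Sec63, a protein translocation factor, had a log2 difference of 0.03.

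A further 4 of the 15 lower genes were granulocyte and myeloid genes, in which WT replicate 2 stood highest. S100a8 had 7.55 and 24.5 FPKM in WT and 1.46 and 1.41 in BTg, and its partner S100a9 had 2.30 and 10 against 0.680 and 0.737. Ngp, a neutrophil granule protein, had 0.964 and 6.36 against 0.181 and 0.348, and Lyz2, lysozyme of myeloid cells, 3.62 and 15.9 against 2.88 and 3.25. Without WT replicate 2 their log2 differences were -1.82, -0.95, -0.64 and -0.18 in place of -2.60, -1.82, -1.59 and -1.12, in the order given. Their unadjusted limma p ran from 0.220 to 0.358, with a spread that also holds the CKO pair, in which S100a8 stood at 3612 and 43.8 FPKM. All 12 neutrophil markers together took 0.0121 and 0.0329% of reads in WT and 0.00787 and 0.00841% in BTg. In a bulk library, fewer cells of a type and less RNA per cell cannot be told apart. The part of these cells in the other differences was not tested.

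**Figure D2:**
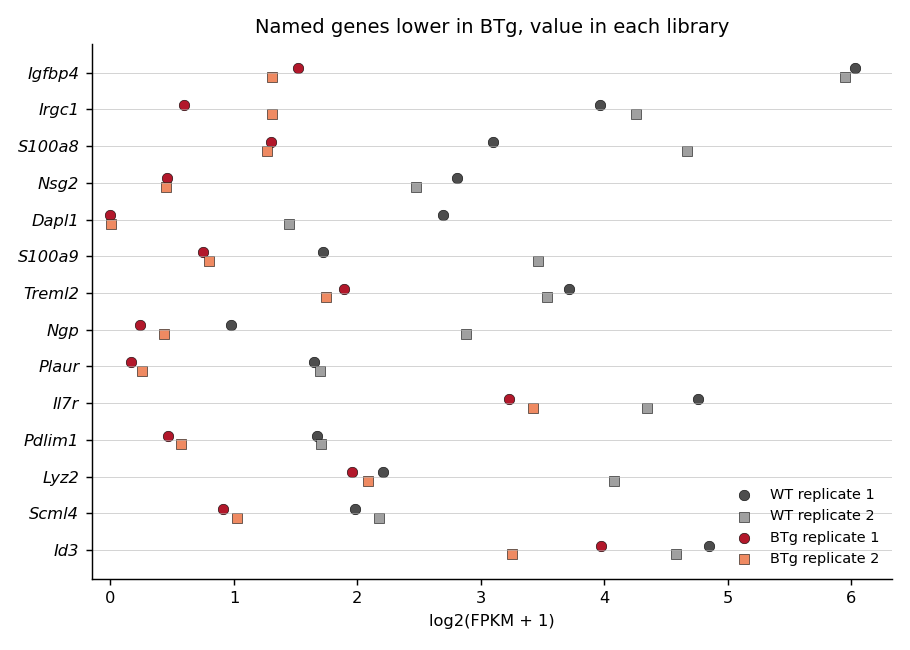
Values on the log2(FPKM + 1) scale (x axis) for the genes described on the lower side, ordered by their difference, with 1 point for each WT and BTg library. In each gene both BTg points lie below both WT points, and the WT points of S100a8, S100a9, Ngp and Lyz2 lie far apart.

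The differences on the higher side were smaller. After Prdm1, no gene chosen by the naming rule exceeded a log2 difference of 1.06, and each had limma adjusted p = 1. Coro2a, a coronin of the actin cytoskeleton, had the smallest unadjusted p among them (0.00209), at 1.92 and 2.1 FPKM in WT and 5.05 and 5.27 in BTg (log2 difference 1.03, SE 0.20). Cldn4, a claudin of tight junctions, had 1.11 and 0.758 FPKM against 3.03 and 3.02, from 36 and 21 reads against 84 and 82. Pde3b, a phosphodiesterase that breaks down cyclic nucleotides, had 14.8 and 15 FPKM in WT and 33.0 and 31.4 in BTg (log2 difference 1.06, SE 0.34). In Coro2a and Pde3b the libraries of a group lay close together, while Cldn4 rests on few reads and its WT libraries lay further apart.

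Socs3, the feedback inhibitor of cytokine receptors that signal through STAT3, had 121 and 119 FPKM in WT and 218 and 205 in BTg (log2 difference 0.81, SE 0.29). Jund, an AP-1 subunit, had 76.2 and 61.6 FPKM against 154 and 102 (log2 difference 0.86, SE 0.34), and Fosl2, a second AP-1 subunit, 0.868 and 2.06 against 3.20 and 4.35 (log2 difference 0.99, SE 0.33). In both AP-1 genes the libraries within a group were further apart than in Socs3.

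Zyx, the focal adhesion protein zyxin, had 28.3 and 40.7 FPKM against 57.7 and 72.0 (log2 difference 0.91, SE 0.31), and Pdlim4, a relative of the lower gene Pdlim1, had 9.44 and 7.81 against 16.5 and 15.9 (log2 difference 0.84, SE 0.48). The rest were Lrrc75b (0.99), the phosphatase gene Ppm1j (0.95), the secreted protease-inhibitor-like gene Wfikkn2 (0.86), the interferon-induced family member Ifit1bl1 (0.96), the monocarboxylate transporter gene Slc16a5 (0.80) and the sialyltransferase gene St6galnac2 (1.06), each with its log2 difference in brackets. St6galnac2, Slc16a5, Zyx, Jund and Coro2a share exon positions with other annotated genes, and Ifit1bl1 has close relatives, so how reads were divided there is uncertain. Just outside the 15 stood Ccr9, a gut-homing receptor, at 0.79. On the lower side Vwa5a stood just outside, at -1.08, next to Id3 at -1.10.

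**Figure D3:**
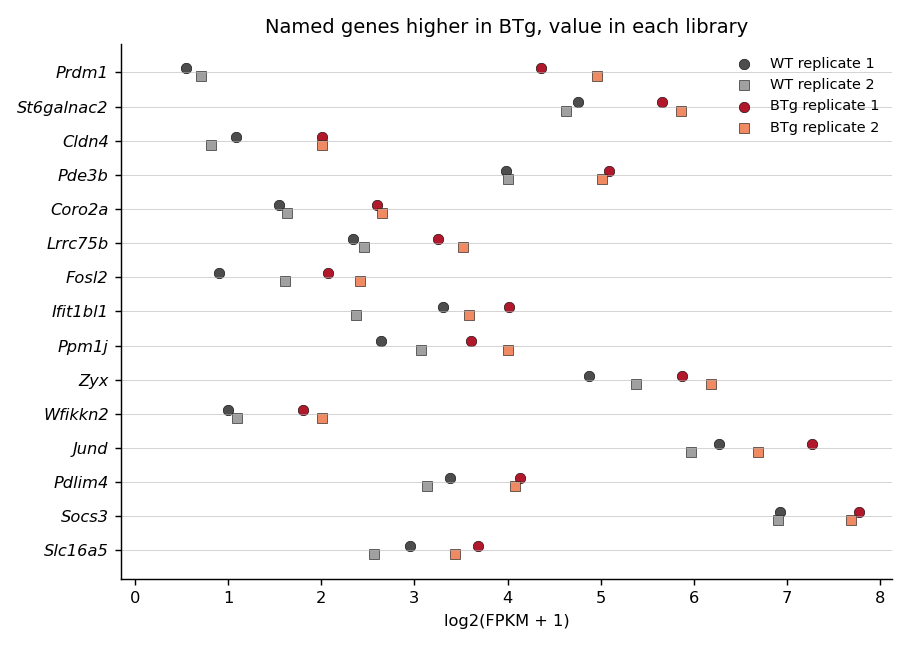
Values on the log2(FPKM + 1) scale (x axis) for the 15 genes of the higher side, ordered by their difference, with 1 point for each WT and BTg library. Prdm1 is set apart by its distance between groups, while the other genes differ by at most 1.06 on the log2(FPKM + 1) scale.

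The promoters of these genes were read for 3 forms of the sequence that Blimp-1 and interferon regulatory factors are known to bind: GAAAGTG, its relative GTGAAAG, and GAAANNGAAA, each on both strands in the 250 bases before a RefSeq start (GRCm38.p6). A single stretch of bases may hold more than one of them. Among 32851 promoters of this length 4.01% held the first, 3.57% the second and 2.98% the third. RefSeq windows were matched for 11 of the 15 higher genes, and 3 of these held GAAAGTG (Ifit1bl1, Pdlim4 and Socs3), 2 held GTGAAAG (Coro2a and Jund) and 3 held GAAANNGAAA (Coro2a, Fosl2 and Ifit1bl1). Of the 11 matched lower genes 0 held either of the first 2, and 1, Nsg2, held the third. A match is a description of the letters and not a binding site. The windows of Igfbp4, the called gene, and Nsg2, from the lower side, and of Socs3 and Pdlim4, from the higher side, are shown 5′ to 3′ on the strand of the gene, at chr11:99040994-99041243 (plus), chr11:32000169-32000418 (plus), chr11:117969367-117969616 (minus) and chr11:54069018-54069267 (minus), with matches in capitals. The capitals in Nsg2 read GAAANNGAAA on the opposite strand, and Igfbp4 has no match in this window.
Igfbp4: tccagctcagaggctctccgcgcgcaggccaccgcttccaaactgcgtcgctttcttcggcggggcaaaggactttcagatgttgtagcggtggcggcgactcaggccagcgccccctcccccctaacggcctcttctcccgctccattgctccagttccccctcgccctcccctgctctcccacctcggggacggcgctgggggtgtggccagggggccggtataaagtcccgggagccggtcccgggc
Nsg2: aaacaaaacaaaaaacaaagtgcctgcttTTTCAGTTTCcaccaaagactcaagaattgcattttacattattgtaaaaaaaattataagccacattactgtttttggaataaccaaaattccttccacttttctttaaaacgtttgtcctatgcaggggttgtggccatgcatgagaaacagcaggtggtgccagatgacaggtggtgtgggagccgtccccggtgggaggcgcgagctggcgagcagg
Socs3: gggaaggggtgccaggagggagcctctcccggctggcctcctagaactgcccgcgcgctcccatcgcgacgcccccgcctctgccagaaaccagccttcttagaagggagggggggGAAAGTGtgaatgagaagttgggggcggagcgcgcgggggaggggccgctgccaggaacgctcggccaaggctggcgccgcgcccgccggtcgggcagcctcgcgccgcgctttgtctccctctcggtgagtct
Pdlim4: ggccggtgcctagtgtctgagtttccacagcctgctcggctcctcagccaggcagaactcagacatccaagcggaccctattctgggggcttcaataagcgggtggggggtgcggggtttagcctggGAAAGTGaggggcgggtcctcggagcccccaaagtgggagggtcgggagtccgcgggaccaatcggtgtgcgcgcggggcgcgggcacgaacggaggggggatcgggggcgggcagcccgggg

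The naive and quiescence list was split. Of its 28 tested members (30 in the list), 18 had a higher and 10 a lower mean in BTg, 10 stood higher and 9 lower without overlap, and 6 of the lower ones differed by 2-fold. The median difference was 0.10, beside 0.02 over all genes tested. The lower members include Igfbp4, Nsg2 and Dapl1, described above, along with Ccr7, the chemokine receptor for lymph node entry, at 43.9 and 35.3 FPKM against 25.0 and 24.5. The transcription factors of the naive state stood level or slightly higher. Tcf7 had 33.6 and 35.6 FPKM in WT and 36.8 and 35.6 in BTg, and Lef1 4.02 and 4.39 against 4.46 and 5.16. Satb1, a chromatin organiser of T cells, had 9.20 and 10.5 against 12.6 and 14 (log2 difference 0.40, SE 0.37). Klf2, which sustains quiescence, had 128 and 110 FPKM against 174 and 115, and its target S1pr1, the receptor for leaving lymphoid tissue, 111 and 94.1 against 123 and 98.2. In both genes the WT and BTg libraries overlap, and the sign of S1pr1 turns without WT replicate 2 or BTg replicate 1, as does that of Klf2 without BTg replicate 1. Of 17 tested naive and memory transcription factor genes (20 in the list), 15 had a higher mean in BTg and 11 did so without overlap, with a median of 0.17, and Id3 was the 1 that stood lower without overlap.

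Genes of the Tfh list stood lower. Of 20 tested members (24 in the list), 17 had a lower mean in BTg, 13 did so without overlap and 0 stood higher without overlap, with a median of -0.21. Cxcr5, the receptor for B cell follicles, had 2.61 and 1.79 FPKM against 0.914 and 0.685 (log2 difference -0.82, SE 0.22), and shares exon positions with Bcl9l. Pdcd1, encoding the inhibitory receptor PD-1, had 3.12 and 2.13 against 1.38 and 1.18, and the costimulatory receptor gene Icos 3.23 and 2.75 against 1.77 and 1.56. Tnfsf8, the CD30 ligand gene, had 2.48 and 2.26 against 1.13 and 1.23. The list and the 13 also hold Cebpa, a transcription factor gene of myeloid cells as well, which shares exon positions with Gm45091. Cebpa had 3.21 and 4.38 FPKM in WT and 1.87 and 1.52 in BTg (log2 difference -0.82, SE 0.47), and 31.0 and 10.9 in CKO. Bcl6 was low in both groups, at 1.17 and 1.6 FPKM against 1.04 and 1.13, with a log2 difference of -0.19 (SE 0.21). Il21, the cytokine in the title of the series, had 0.576 and 0.562 FPKM against 0.299 and 0.268, and it reached the filter only through the CKO libraries.

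Regulatory T cell genes had a lower mean in 13 of 15 tested members (22 in the list) and stood lower without overlap in 12, with a median of -0.33. Foxp3, which defines these cells, had 5.07 and 5.99 FPKM in WT and 3.27 and 3.80 in BTg (log2 difference -0.52, SE 0.25), and shares exon positions with 4 other genes. Ikzf4, encoding the Ikaros-family factor Eos, had 2.96 and 3.68 against 2.02 and 2.12, and Nt5e, encoding the ectonucleotidase CD73, 2.46 and 2.25 against 1.43 and 1.55. Of 10 tested coinhibitory receptor genes 8 had a lower mean, 6 of them without overlap, with Ctla4 at 7.80 and 6.05 FPKM against 5.34 and 4.91. Among the 6, Tigit reached the filter only through the CKO libraries. Vsir, encoding the checkpoint molecule VISTA, stood on the other side, at 18.7 and 16.2 against 23.5 and 22.1.

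Effector and memory genes also stood lower, in mean in 25 of 30 tested members (32 in the list) and without overlap in 20, against 3 higher without overlap, with a median of -0.36. Cxcr3, which type 1 helper cells use to reach inflamed tissue, had 13.1 and 13.6 FPKM against 6.02 and 6.99 (log2 difference -0.94, SE 0.26). Cxcr6, a second tissue-homing receptor, had 15.2 and 7.78 against 5.87 and 4.24. The transcription factor gene Id2 had 74.4 and 43.1 against 34.9 and 22.8. Eomes, a T-box factor of memory and cytotoxic cells, had 1.09 and 1.11 against 0.147 and 0.178, and it passed the filter through its WT and CKO levels. Itgb1, the integrin beta chain of many memory cells, had 12.7 and 11.7 against 6.72 and 5.85 (log2 difference -0.86, SE 0.22). Cd44, an activation marker, differed little, at 1.23 and 1.6 against 1.11 and 1.11. The type 1 helper list had a lower mean in 7 of 10 tested members (median -0.39), among them Ifng at 0.859 and 0.429 FPKM against 0.225 and 0.208, which also reached the filter only through the CKO libraries. The chemokine and homing receptor list stood lower without overlap in 11 and higher in 7 of 23 tested members, with a median of -0.20.

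Cytokine receptor genes went both ways. Among genes of interleukin-21 and of the receptors that share the common gamma chain, 11 of 21 tested members had a higher and 10 a lower mean, with a median of 0.02, and 7 stood higher and 6 lower without overlap. Il21r, the interleukin-21 receptor chain, had 5.45 and 6.11 FPKM in WT and 9.03 and 10.6 in BTg (log2 difference 0.67, SE 0.29). Il4ra, the interleukin-4 receptor chain, had 13.1 and 10.5 against 21.8 and 19.7 (0.77, SE 0.32). With Socs3 these are the higher members of largest difference, and Il7r is the lower one. Among other cytokine receptors Tnfrsf1a, a receptor for TNF, had 9.42 and 10.9 against 15.6 and 16.5, and the interferon-gamma receptor chain gene Ifngr2 3.72 and 3.29 against 2.29 and 2.42.

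The genes of proximal T cell receptor signalling all had a higher mean in BTg, 27 of 27 tested (29 in the list), and 20 did so without overlap, beside 14.7% of all genes. The differences were small, with a median of 0.18 (0.17 to 0.26 when each library was left out). The adaptor gene Grap2 had 22.4 and 21.4 FPKM against 28.8 and 32.1 (log2 difference 0.46, SE 0.50). Plcg1, the phospholipase that receptor signalling activates, had 33.0 and 42.4 against 43.7 and 59.7. On the log2(FPKM + 1) scale the receptor complex and its coreceptors had a higher mean in 13 of 13 tested members. Their median was 0.16, and -0.13 without WT replicate 2. Only Cd3e, Cd4, Cd5, Cd6, Ptprc and Thy1 stood higher without overlap. In mean FPKM Trbc1, Trbc2 and Cd247 stood slightly lower in BTg, at 407, 635 and 4.22 in WT against 389, 609 and 4.17. Thy1, a T cell surface glycoprotein, had 547 and 413 FPKM against 736 and 616. Gata3, a factor of T cell development and type 2 helper cells, had 3.86 and 4.62 against 5.67 and 5.92.

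Immediate early and stress genes had a higher mean in 25 of 30 tested members (33 in the list), 10 without overlap, with a median of 0.32, and 0.10 without BTg replicate 1. Besides Jund and Fosl2, Zfp36, which destabilises cytokine transcripts, had 56.8 and 45.1 FPKM against 84.3 and 67.1, and the growth arrest gene Gadd45a 6.26 and 8.72 against 12.7 and 10.5. Genes of cholesterol and fatty acid synthesis and uptake had a higher mean in 17 of 19 tested members (21 in the list), and 12 stood higher and 0 lower without overlap. Their median was 0.27, and 0.26 to 0.27 when each library was left out. Sqle, the squalene epoxidase gene, had 1.88 and 2.34 FPKM against 3.09 and 3.07, and Srebf2, the transcription factor gene of the pathway, 10.4 and 12.1 against 15.2 and 16.7.

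The genes of all 36 cell cycle proteins in the list had a lower mean in BTg, with a median of -0.49, but only 3 stood lower without overlap. Without WT replicate 2 the median was 0.31 and without WT replicate 1 it was -1.26, so its direction rests on WT replicate 2. Pcna, the DNA polymerase clamp, had 176 and 204 FPKM against 149 and 127, and Rrm1, a ribonucleotide reductase subunit, 18.6 and 43.9 against 16.2 and 18.4, a log2 difference of -0.70 that is -0.10 without WT replicate 2. Myc, a transcription factor of cell growth, had 14.2 and 23.7 against 13.4 and 15.4, with a log2 difference of -0.33 that is 0.02 without WT replicate 2.

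Genes known as direct targets of Blimp-1 in other lymphocytes went both ways, with more of them lower than higher. Of 17 tested (23 in the list) 6 had a higher and 11 a lower mean, with a median of -0.13, and Id3 and Cxcr5 were among the 7 that stood lower without overlap. Prdm1 itself is counted in this list, among the 6 higher members, and in the list of effector transcription factors. There 9 of the 12 tested members had a lower mean. Prdm1 reached the filter only through the BTg libraries, Ikzf2 only through the CKO libraries and Eomes only through WT and CKO. The filter thus in part fixes these counts and their direction. Il2 and Il10, both linked to Blimp-1 in T cells, and Bach2 did not reach the filter. Il2 had 0.0724 and 0.0121 FPKM against 0.0121 and 0.0123, and Il10 had 0.121 and 0.0255 against 0.102 and 0.0521. Bach2, a repressor of effector differentiation, had 0.683 and 0.730 FPKM against 0.776 and 1.11. Its reads were not few, at 2049 and 1879 in WT and 1997 and 2796 in BTg. The deposited FPKM divide by a gene length with introns included, so a low Bach2 value does not mean few reads. Among genes named from the lists, Satb1, Lef1, Bcl6, Il21, Ikzf4, Eomes, Ifng, Il4ra, Plcg1, Gata3, Zfp36, Gadd45a and Bach2 share exon positions with other annotated genes, so how reads were divided there is uncertain. The same holds for Irf7, Cd3e, Cd247, Mzb1 and Trdc. The 4 tested genes of the PR-domain family other than Prdm1 had a higher mean with a median of 0.17, and 0 of the 4 stood clear of WT, while the corepressor partners had a median of 0.03 over 13 genes.

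A further set of T cell and housekeeping lists had medians from -0.24 to 0.13. Interferon-stimulated genes had a higher mean in 14 of 21 tested members and 5 stood higher without overlap, with a median of 0.11. Irf7, which amplifies the interferon response, had 24.4 and 33.1 FPKM in WT and 35.3 and 38.9 in BTg. The Bcl2 family of survival and death genes was divided 7 to 7 with a median of -0.01, and Mcl1, a survival factor of lymphocytes, had 171 and 174 FPKM against 205 and 203. NF-kappaB genes had a higher mean in 13 of 15 (median 0.12), with Nfkbie, an inhibitor of the pathway, at 3.53 and 4.45 FPKM against 4.78 and 5.77. Cytokine and TNF ligand genes had a lower mean in 13 of 19, 9 of them without overlap, with a median of -0.17. Among them Tnfsf14, encoding the ligand LIGHT, had 5.12 and 3.37 FPKM against 2.48 and 1.78. Of the 9, Ifng reached the filter only through the CKO libraries, and Xcl1 only through WT replicate 1 and CKO replicate 2. The filter thus in part fixes this count and its direction. The medians of the Gimap GTPases (0.13), the glycolysis and citric acid cycle genes (0.04) and the endoplasmic reticulum genes (-0.12) changed sign when single libraries were left out, and ran from -0.14 to 0.36, -0.02 to 0.15 and -0.22 to 0.04. Costimulatory receptors (median 0.05), interferon regulatory factors (0.04) and integrin and tissue exit genes (0.11) had members on both sides. The type 2 and type 17 helper lists had 7 and 5 tested members with a median of -0.20 each, the cytotoxic list 8 with -0.24 and the Ly6 family 5 with -0.23.

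**Figure D4:**
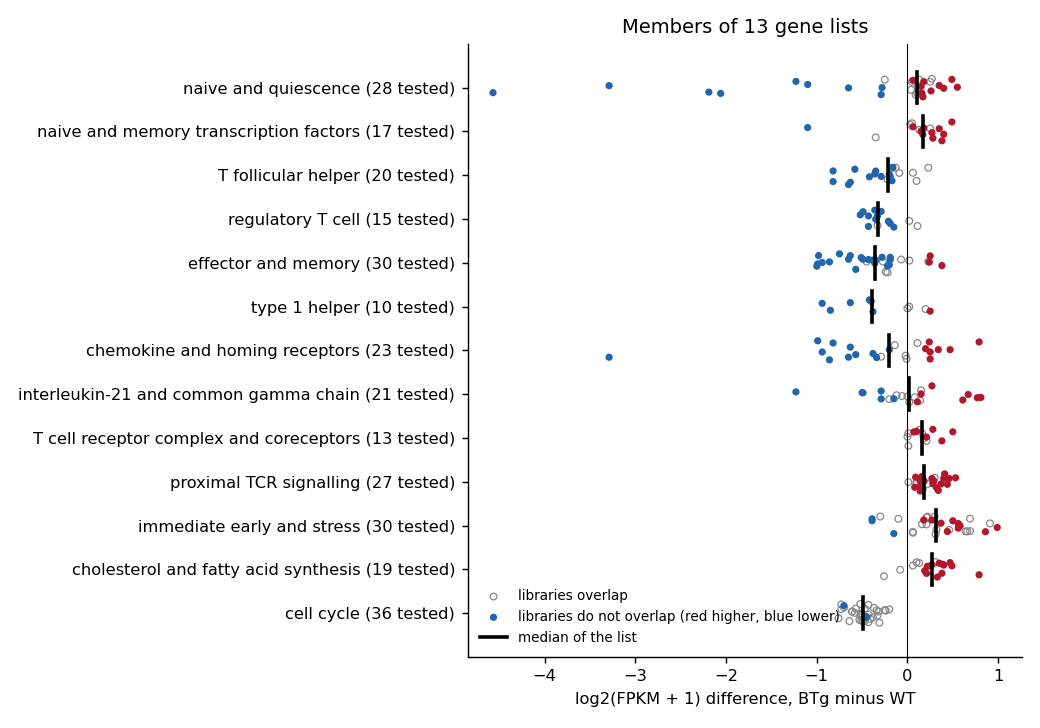
Points are the tested members of 13 gene lists, placed by their log2 difference on the log2(FPKM + 1) scale, BTg minus WT, filled where the libraries do not overlap (red higher, blue lower), with a bar at each list's median. The proximal T cell receptor signalling and cholesterol lists lie above 0 with medians of 0.18 and 0.27, the Tfh, regulatory and effector lists below it, and the naive list spreads from Igfbp4 at -4.57 to values above 0.

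Markers of other cell types were detected in all 4 libraries, and most of those tested had a lower mean in BTg. The 9 tested neutrophil markers (12 in the list) stood lower without overlap, with a median of -1.07, and -0.53 without WT replicate 2. Several of them, Camp, Ltf, Lcn2 and Retnlg among them, reached the filter only through WT replicate 2 and the CKO libraries, where they are high, so the filter in part fixes this count and its direction. All 11 tested erythroid markers had a lower mean, 0 of them without overlap, and their median of -0.96 became 0.37 without WT replicate 2. The plasma cell markers had a lower mean in 9 of 9 tested members and a median of -0.29, with Jchain, the joining chain of secreted antibodies, at 125 and 110 FPKM against 99.8 and 56.4. Only Jchain and Mzb1 stood lower without overlap, and Fkbp11 reached the filter only through the CKO libraries. The B cell markers reached the filter in 3 of 10, and their summed reads were 0.00391 and 0.00820% in WT against 0.00365 and 0.00469% in BTg. For monocyte, dendritic and basophil markers the summed reads were 0.00882 and 0.0170% against 0.00698 and 0.00636%, 0.00939 and 0.0211% against 0.0102 and 0.0131%, and 0.00192 and 0.00368% against 0.00180 and 0.00183%. No marker list had a member at 0 reads in all 4 libraries. The part of these cells in the differences of T cell genes was not tested.

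Markers of T cells of the gamma-delta lineage, which carry another receptor, were lower too. All 6 tested members (8 in the list) had a lower mean in BTg and 4 stood lower without overlap, with a median of -0.81. Among the 4, Tcrg-C1 and Trdv4 reached the filter only through WT and CKO libraries, where they are higher. The filter thus in part fixes this count and its direction. Tcrg-C2, a gamma chain constant gene, had 3.54 and 3.36 FPKM against 1.04 and 1.38 (log2 difference -1.02, SE 0.24), and the variable segment Trgv2 had 8.41 and 9.80 against 3.31 and 3.93. The natural killer cell list reached the filter in 3 of 8 members, of which Klrd1, encoding CD94, had 1.79 and 1.61 FPKM against 2.81 and 3.42, and Prf1, the perforin gene, 7.5 and 5.6 against 10.1 and 9.76. The third, Eomes, stood lower. The CD8 T cell list reached it in 3 of 7, including Nkg7, a granule protein gene, at 20.2 and 17.4 against 8.63 and 9.22.

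**Figure D5:**
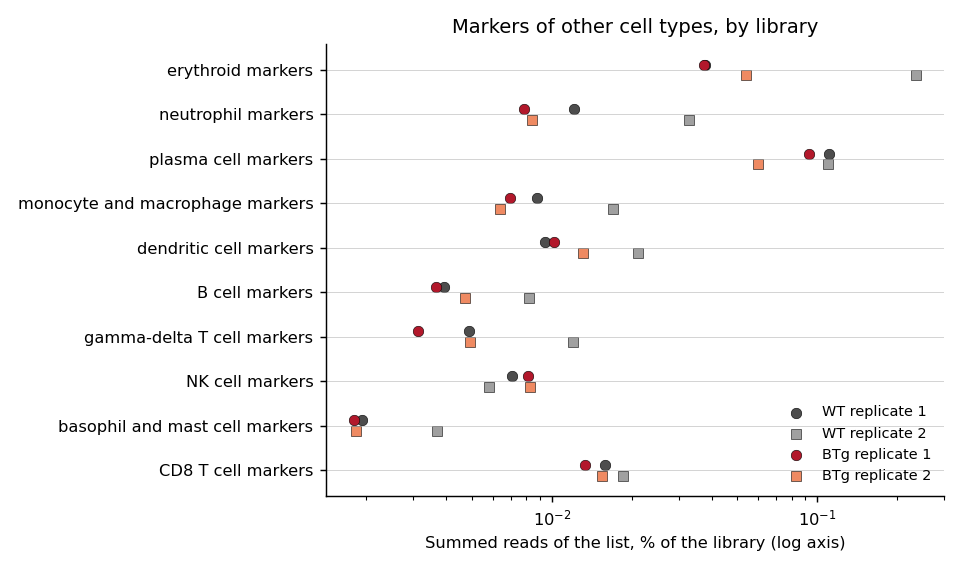
Share of reads, in percent on a log axis, taken by each list of markers of other cell types in each WT and BTg library. WT replicate 2 is highest for the erythroid list at 0.236% and the neutrophil list at 0.0329%, and the BTg libraries lie at 0.0373 and 0.0539% and at 0.00787 and 0.00841%.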

How the data were processed

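Total CD4 T cells of the spleen were profiled by RNA sequencing from TRIzol-extracted RNA (NEBNext Ultra kit), as the labels' protocols give it. Trimmomatic 0.38, HISAT2 2.1.0, featureCounts 1.6.0 and GRCm38 are named, per the submitters' processing notes; settings, strand and annotation release were not given in the sources used here. FPKM values were deposited by the authors for 28914 genes, as 1 table. With gene length set to the median span of its transcripts on the genome (GENCODE M21, introns included), 100.0% of values came out as whole reads within 0.01. The deposited FPKM therefore use that span, whose median is 3.07 times exon length over protein-coding genes.

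Groups came from the sample titles; both BTg titles end in 1, so BTg replicate 2 rests on its column name. Values were taken as log2(FPKM + 1), and genes reaching 1 FPKM in 2 or more libraries entered 1 limma fit of all 6 libraries (R 4.3.3, limma 3.58.1, eBayes with a trend, no block, Benjamini-Hochberg over 10798 genes). A fold on this scale understates low genes, and counts of higher and lower means use this scale. With 2 libraries against 2 an exact two-sided permutation test cannot go below p = 0.333, so none was run. The fit was tested on simulated data. Named genes are Prdm1, genes past the threshold, and up to 15 per direction with non-overlapping libraries, at least 2 FPKM in the higher group's mean and 20 reads in each of its libraries, ranked by difference; predicted genes and receptor or antibody segments are left out. Up to 4 non-overlapping members per list and a set of fixed T cell genes follow. The comparison, the 43 gene lists and these rules were chosen with earlier results of these data known. Figures were drawn with matplotlib 3.10.9. Promoters came from RefSeq. Some genes that the naming rule takes are not reported here.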

Additional observations from a re-analysis of the deposited data

How the results depend on the processing

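Against 2 genes past the threshold, the count was 46 with no filter on low values (28 higher, 18 lower), 1 with a filter of 5 FPKM, 0 with quantile normalization, 1 with the 4 WT and BTg libraries alone, 0 without the first CKO library and 0 whenever a WT or BTg library was left out, where 99 to 415 genes had an unadjusted p under 0.05 by limma; with quantile normalization 228 did and without the first CKO library 316. It stayed at 2 with pseudocounts of 0.1 and 0.5, median centring, no trend, exon length and limma voom on recovered reads. Prdm1 kept its direction throughout: its log2 difference was 4.04 with the filter of 5 FPKM, 4.12 with quantile normalization, 4.04 with the 4 libraries alone and 4.04 without the first CKO library, in none of which it passed the threshold, and 3.96 to 4.12 without a WT library. Without a BTg library Prdm1 falls below the filter and has no value. Over all alternatives its adjusted p ran from 0.00761 to 0.546.

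With the replicate number as a block 0 genes passed and 373 had an unadjusted p under 0.05; the log2 differences of Prdm1 and Igfbp4 were 4.04 and -4.57 (limma adjusted p = 0.130 for each). Same-numbered WT and BTg libraries deviated together, with a correlation of 0.469 over 10798 genes. For BTg with CKO the correlation was 0.456 and for WT with CKO 0.173. However, 2 numbers are too few to show a pairing, and the labels state none.

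Genes with non-overlapping libraries and a 2-fold difference numbered 61 higher and 90 lower. They were 22 and 51 with the filter of 5 FPKM, 135 and 186 with a pseudocount of 0.1, 176 and 514 with limma voom, and 61 to 157 and 88 to 382 when each library, the first CKO library included, was left out. Among 132 named genes the sign turned for S1pr1 (-0.01 without WT replicate 2, -0.06 without BTg replicate 1), Myc (0.02 without WT replicate 2) and Klf2 (-0.04 without BTg replicate 1). With each library left out these ranged over -0.06 to 0.27, -0.68 to 0.02 and -0.04 to 0.55. The cause of these changes was not tested. Low reads limit Cldn4 and the receptor segments, while those of Dapl1 are low in BTg only, at 0 and 1.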

Other observations

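Receptor and antibody segments are left out by the naming rule, and none passed the threshold. Of 60 tested joining segments of the T cell receptor alpha locus (Traj), 53 had a higher mean in BTg and 30 stood higher without overlap, against 1 lower, with a median log2 difference of 0.50. Their summed reads were 1915 and 1872 in WT and 2234 and 2880 in BTg. The 64 tested variable segments of the same locus had a median of 0.15 and stood higher without overlap in 5 and lower in 2. The constant gene Trac stood at 200 and 115 FPKM in WT and 182 and 151 in BTg, with overlapping libraries. The gamma locus went the other way. All 3 tested constant genes and all 4 tested variable segments stood lower without overlap, and the constant genes held 454 and 386 reads in WT against 148 and 155 in BTg. Tcrg-C1, Tcrg-C4 and Tcrg-V6 reached the filter only through WT and CKO libraries, so the filter in part fixes these counts and their direction. Tcrg-V1 had 7.36 and 5.20 FPKM against 0.985 and 2.58. Trdc, the delta chain constant gene, had 1.77 and 3.44 FPKM against 1.26 and 1.96, with overlapping libraries.

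Immunoglobulin segments took 0.852 and 1.17% of reads in WT and 0.878 and 0.704% in BTg. Of 226 tested, 62 stood lower and 19 higher without overlap, with a median of -0.31. Among the constant genes, Ighg2b had 108 and 92.4 FPKM in WT and 39.5 and 24.7 in BTg, while Ighg3 had 10.2 and 0.334 against 16.6 and 39.5, not past the threshold at a log2 difference of 2.79 (SE 1.03). Ighm overlapped between groups, at 873 and 1181 FPKM against 1078 and 910. The 13 protein-coding mitochondrial genes had a lower mean in BTg, with a median of -0.39, but followed the replicate number, at 3.10 and 1.22% of reads in WT and 2.25 and 1.09% in BTg, and 0 of them were free of overlap. These genes were chosen after their values were seen.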
